A study of Homo sapiens with 12 samples.

Results

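Mucins and the proteins that tie the apical membrane to actin were examined in HMT-3522 S1 acini, through 9 genes chosen by symbol. They were the membrane mucins MUC1, MUC4 and MUC16, the GPI-anchored surface antigen PSCA, the apical sialomucin PODXL, the microvillar glycoprotein PROM1, and the ERM linkers EZR, RDX and MSN. Every probe set annotated with exactly 1 of these symbols was taken, which gave 19 probe sets of the 22215 on the array that are not controls, and 9 of 11963 genes. MUC1, MUC4 and RDX had 3 probe sets each, EZR had 5 and the other 5 genes had 1. The genes were chosen with earlier results of these arrays known, among them the MUC4 values under Aza, so their differences from vehicle are given as a description and support nothing by themselves.

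S1 is an established line of non-neoplastic cells of human mammary epithelium, which forms hollow acini in basement membrane gel. Aza cultures received 10 µM 5-aza-2' deoxycytidine, which blocks DNA methyltransferases, and AGA cultures 10 µM 18α-glycerrhitinic acid (the labels' spelling), which blocks gap junctions, both for 10 days from plating, and the labels call both not polarized. Vehicle cultures, labelled polarized, were the reference, and all groups grew with 5% Matrigel, with EGF for 8 days and without it for the last 48 hours. Each group had 4 arrays, from 1 cell line at passages 55 to 60, and the labels do not say how separate the cultures were, so the errors measure the spread between these samples, which may be technical.

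An epithelial cell that faces a lumen covers that face with mucins, long proteins carrying dense O-linked sugars. Ezrin, radixin and moesin hold such proteins in place: an amino-terminal domain binds the tails of membrane proteins or their adaptors, and the carboxy-terminal end binds actin filaments. Ezrin is the ERM protein best known from microvilli of epithelia. MUC1, podocalyxin and ezrin are therefore used as markers of the apical face in mammary acini, as proteins seen by microscopy, whereas the arrays measured only their transcripts.

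The 12 arrays had median deposited intensities of 23.3 to 35.9, and their number limits the precision. Levels are given as log2 of the quantile-normalized intensity, where a deposited value under 1 stands at a floor of 0. Levels of different probe sets are not amounts of different transcripts and are not ranked against each other as such, and a name ending in _s_at or _x_at marks probes that can also match other transcripts. In such bulk RNA, fewer cells of a type and less RNA per cell cannot be told apart. Keratin genes of the basal type were bright on every array, KRT5 at 11.94 to 12.79 and KRT14 at 11.17 to 12.92. The other epithelial markers KRT8, KRT18 and CDH1 stood at 6.85 to 8.30, 7.29 to 8.54 and 6.52 to 8.76. KRT19 was at the floor on all 12 and EPCAM at 0 to 3.45. The summed linear level of the 7 epithelial markers measured, of 8 listed, was 8741 to 13439 in Aza, 12615 to 15582 in AGA and 9121 to 13828 in vehicle. For 6 of 6 fibroblast markers the sum was 219 to 286 in Aza, 132 to 217 in AGA and 182 to 260 in vehicle, with COL1A1 at 6.48 to 7.73 and LUM at 0 to 0.89 over the 12 arrays. For 3 of 5 leukocyte markers it was at most 49.3, 31.8 and 36.9 in Aza, AGA and vehicle, and for 3 endothelial markers at most 9.10, 23.1 and 15.8. The part of these markers in the results was not tested.

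Because Aza acts on the methylation of cytosine in the sequence CG, the promoters of a mucin gene and of an ERM gene are shown from RefSeq (GRCh38.p14, 250 bases before to 50 after the start), with every CG in capitals. MUC4 is shown because one of its probe sets differed most from vehicle in Aza, and EZR because its brightest probe set had nearly the same mean there. The MUC4 promoter, at chr3:195811880-195812179 on the minus strand, holds 12 CG and the EZR promoter, at chr6:158818186-158818485 on the minus strand, holds 36.
MUC4: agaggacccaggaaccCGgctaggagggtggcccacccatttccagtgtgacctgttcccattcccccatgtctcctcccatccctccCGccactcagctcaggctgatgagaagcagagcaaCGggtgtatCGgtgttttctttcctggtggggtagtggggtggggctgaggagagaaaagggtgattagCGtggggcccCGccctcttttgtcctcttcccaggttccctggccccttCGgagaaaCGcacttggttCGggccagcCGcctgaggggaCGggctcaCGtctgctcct
EZR: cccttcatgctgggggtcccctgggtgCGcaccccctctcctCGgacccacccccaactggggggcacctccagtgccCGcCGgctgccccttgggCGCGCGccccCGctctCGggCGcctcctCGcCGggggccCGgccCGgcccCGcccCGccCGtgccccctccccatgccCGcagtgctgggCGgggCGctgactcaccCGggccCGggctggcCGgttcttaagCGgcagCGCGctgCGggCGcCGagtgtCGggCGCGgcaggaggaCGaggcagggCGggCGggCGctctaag
The motif reads CG on both strands. Of the 35116 promoters in the table, 53.1% hold at least 12 and 12.7% at least 36, and 96.0% hold at least 1. The RDX promoter holds 46 (2.9% have as many), both MUC1 promoters 13, the 2 MUC16 promoters 7 and 8, the 2 MSN promoters 7 and 29, and the 4 PROM1 promoters 6 to 32. Promoters are given for 7 of the 9 genes: PODXL had no entry, and PSCA was not looked up because its chromosome was left out. Methylation itself was not measured, and a CG count says nothing of whether a site was methylated.

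The mucins, PODXL and PROM1 gave dim signals and the linkers bright ones, which describes signal and not the amount of transcript. Of the 19 probe sets, 9 had a mean level above the median of all probe sets (4.76): the PSCA probe set, 4 of 5 for EZR, 3 of 3 for RDX and the MSN probe set. The 3 MUC1 probe sets ranked at the 38.3 to 43.2 percentiles, and those of MUC4, MUC16, PODXL and PROM1 at 28.1 or lower. The brightest were RDX 212397_at and MSN, at percentiles 96.7 and 92.4. No detection calls were used here, so whether a dim probe set lay above background was not tested.

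**Figure D1:**
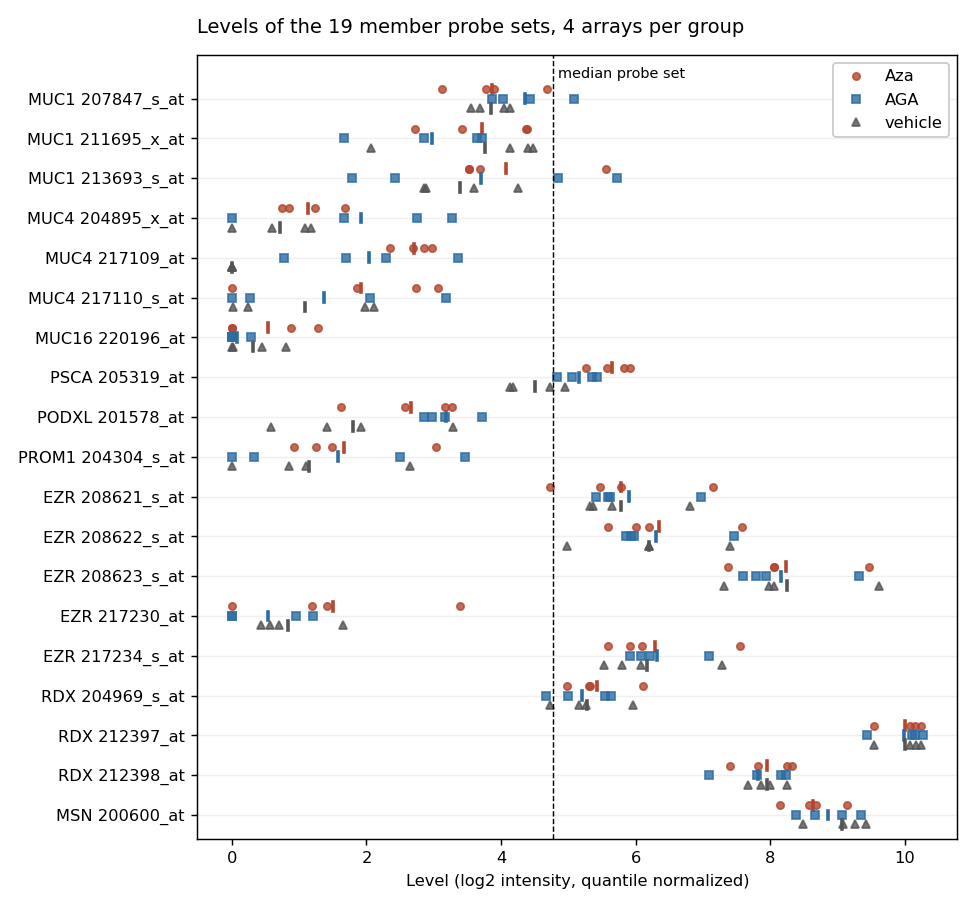
Levels of the 19 probe sets, as log2 intensity after quantile normalization (x axis), with 1 row per probe set. Each point is 1 of 4 arrays of Aza (circles, upper), AGA (squares, middle) or vehicle (triangles, lower), short bars are group means, and the dashed line is the median level of all probe sets, 4.76. The mean bars of the mucins lie left of the line and those of RDX, MSN and most EZR probe sets right of it. Some MUC1 and RDX points, and the Aza 3 point of EZR 208621_s_at, lie on the other side. In the 4 brighter EZR probe sets 1 point of each group stands to the right of the other 3.

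No member passed in any comparison. The fit was limma over all probe sets and all 12 arrays, two-sided with Benjamini-Hochberg adjustment at 0.05. In Aza against vehicle it called 0 of 19 member probe sets, where 0.009% of all probe sets were called, and the lowest adjusted p was 0.278 (limma). In AGA against vehicle it called 0 of 19, against 0.009% of all, with a lowest adjusted p of 0.808 (limma). In Aza against AGA it called 0 of 19, against 0.0135% of all, with adjusted p of 1 (limma). At an unadjusted p under 0.05, limma gave 2, 3 and 0 members in these comparisons, where 3.27%, 4.73% and 4.76% of all probe sets passed. With the replicate number as a block limma again called 0 members, with 3, 4 and 1 at an unadjusted p under 0.05, where 5.39%, 9.52% and 9.13% of all passed. With block and intensity trend it called 0 as well, where 0.0045%, 0.702% and 0.851% of all were called, with 3, 2 and 0 unadjusted, where 6.47%, 11.8% and 11.2% of all passed. The comparisons of Aza and of AGA with vehicle share the vehicle arrays.

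Over the 19 probe sets the median difference was 0.15 in Aza minus vehicle, where the median over all probe sets was -0.00076, and 14 were above 0. It was 0.11 in AGA minus vehicle, against 0 over all, with 11 above 0. With dim probe sets left out, which keeps 9 members, the member median was 0.0045 in Aza and -0.0156 in AGA. It was also below 0 in AGA without AGA 3 (-0.0048), and without vehicle 4 it was 0.47 in Aza and 0.38 in AGA. Without normalization the median over all probe sets was -0.24 in AGA minus vehicle, and the member median lay 0.07 above it.

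**Figure D2:**
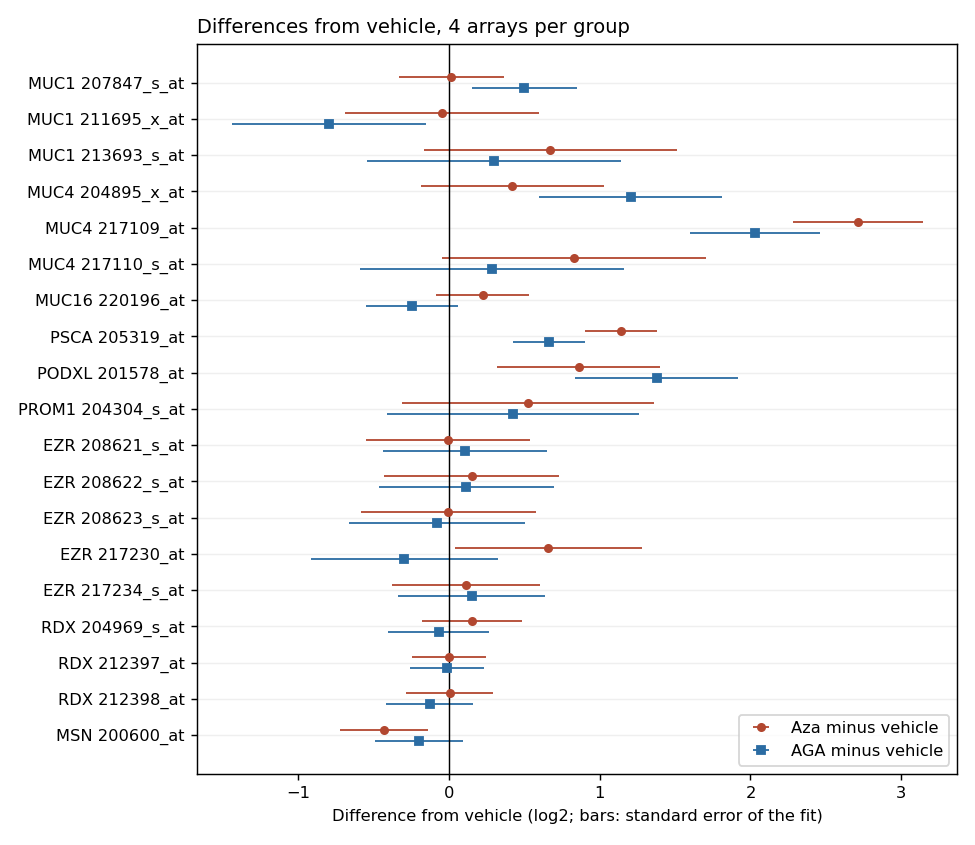
Difference from vehicle of each member probe set, on the log2 scale (x axis), for Aza (circles, upper) and AGA (squares, lower), with bars of 1 standard error of the limma fit and 4 arrays per group. The points farthest right are MUC4 217109_at, at 2.71 in Aza and 2.03 in AGA, and the RDX points and the EZR points other than 217230_at lie near 0.

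Among the cell surface members, PSCA was the one whose probe set had a mean over all arrays (5.10) above the median level of 4.76. Its vehicle mean of 4.499 was below that level, so PSCA passed this cut, and stayed when dim probe sets were left out, through the higher treated arrays. PSCA is a small protein of the Ly6 family held in the membrane by a lipid anchor, first described in prostate. PSCA 205319_at stood at 5.91, 5.57, 5.83 and 5.27 in Aza, at 4.83, 5.06, 5.42 and 5.34 in AGA, and at 4.73, 4.14, 4.95 and 4.18 in vehicle, in order of replicate number. All Aza arrays were above all vehicle arrays, whereas the AGA arrays overlapped both. The means were 5.64 ± 0.29 in Aza, 5.16 ± 0.27 in AGA and 4.499 ± 0.40 in vehicle (SD, n = 4 each), so the order was Aza, AGA, vehicle, and each step between neighbours was larger than the SD of either.

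Aza minus vehicle for PSCA was 1.14 ± 0.24 (SE, n = 4 per group), a 2.21-fold difference, with a limma adjusted p of 0.803, and it was above 0 in 4 of 4 same-number pairs (0.88 to 1.43), a pattern that 7.61% of all probe sets showed. AGA minus vehicle was 0.66 ± 0.24 (SE, n = 4 per group; limma adjusted p of 1) and above 0 in 4 of 4 pairs, as were 9.15% of all probe sets, though by only 0.10 in the first pair. With the replicate block the limma adjusted p for PSCA was 0.711 in Aza and 0.449 in AGA against vehicle. With block and trend these were 0.288 and 0.248. Aza minus AGA was 0.48 ± 0.24 (SE, n = 4 per group; limma adjusted p of 1), above 0 in 3 of 4 pairs. On the deposited linear scale PSCA read 34.5 to 66.9 in Aza, 23.1 to 36.5 in AGA and 18.5 to 38.9 in vehicle, so there the lowest Aza array lay under the highest vehicle array.

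MUC4 is a large membrane mucin that also binds the receptor ERBB2. Its probe set 217109_at stood at 2.85, 2.97, 2.68 and 2.35 in Aza and at 0.78, 2.29, 1.70 and 3.36 in AGA, and at the floor of 0 on all 4 vehicle arrays. Both treated groups were thus above vehicle on every array and overlapped each other. The signal was low throughout: the deposited intensities were 5.00 to 8.66 in Aza, 1.43 to 9.62 in AGA and 0.344 to 0.803 in vehicle, under the median of every array.

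The MUC4 217109_at means were 2.71 ± 0.27 in Aza, 2.03 ± 1.08 in AGA and 0 in vehicle (SD, n = 4), and the step between Aza and AGA, 0.68, was within the AGA spread. Aza minus vehicle was 2.71 ± 0.43 (SE, n = 4 per group; limma adjusted p of 0.278, and 0.711 with the replicate block). AGA minus vehicle was 2.03 ± 0.43 (SE, n = 4 per group; limma adjusted p of 0.808). Aza minus vehicle passed when AGA was left out of the fit (adjusted p of 0.00958), without AGA 1 (0.0441) and without AGA 4 (0.0392), which changes the shared spread and not the difference. The vehicle SD of 0 is made by the floor and lowers the error of the fit, and under the other alternatives its adjusted p was 0.135 to 1. With values below 16 set to 16 no difference was left, and on the log2(value + 16) scale it was 0.45 in Aza and 0.33 in AGA.

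The other MUC4 probe sets did not separate the groups. MUC4 204895_x_at lay between 0.75 and 1.69 in Aza, 0 and 3.26 in AGA, and 0 and 1.18 in vehicle. MUC4 217110_s_at lay between 0 and 3.06 in Aza, 0 and 3.18 in AGA, and 0.02 and 2.11 in vehicle. They differed from vehicle by 0.42 and 0.83 in Aza and by 1.21 and 0.29 in AGA (SE of 0.61 and 0.88), so the 3 probe sets of the gene did not give 1 answer. Groups did not overlap for 2 of 19 members in Aza against vehicle, both higher, where 0.846% of all probe sets were so, and for 1 of 19 in AGA, also higher, where 1.23% were. None of 19 was lower without overlap (0.878% of all in Aza and 1.29% in AGA). In Aza against AGA 0 of 19 were higher and 0 lower without overlap, where 1.24% and 1.34% of all were.

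**Figure D3:**
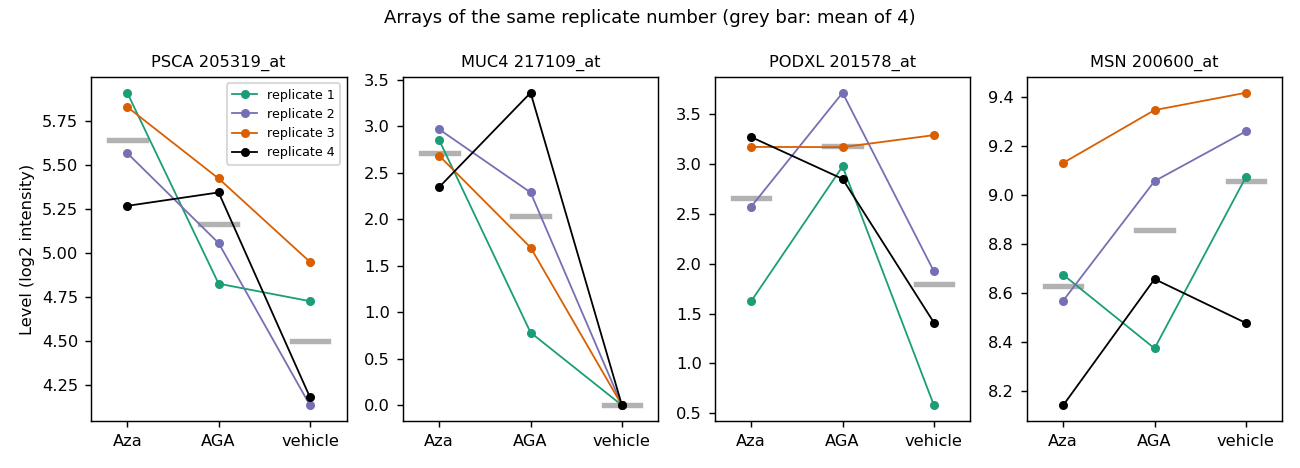
Log2 levels of PSCA, MUC4 217109_at, PODXL and MSN (y axes, not all from 0) in Aza, AGA and vehicle (x axis), with a line for each replicate number and grey bars for means of 4. For PSCA and MUC4 each line ends lower in vehicle than in Aza, for MSN each ends higher, and for PODXL replicate 3 stays level.

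MUC1 is the transmembrane mucin of the luminal mammary surface. Its brightest probe set, MUC1 207847_s_at, stood at 3.78, 3.89, 4.68 and 3.12 in Aza, at 4.03, 3.86, 5.08 and 4.43 in AGA, and at 3.68, 4.04, 4.13 and 3.56 in vehicle. The 3 groups overlapped, with means of 3.87 ± 0.64 in Aza, 4.35 ± 0.54 in AGA and 3.85 ± 0.28 in vehicle (SD, n = 4), and no step between neighbours exceeded the larger SD. Aza minus vehicle was 0.02 (95% interval -0.75 to 0.79) and AGA minus vehicle 0.50 (-0.27 to 1.27).

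The other MUC1 probe sets were less even. MUC1 211695_x_at stood at 2.71 to 4.39 in Aza, 1.67 to 3.72 in AGA and 2.06 to 4.47 in vehicle, and its AGA difference, -0.80 ± 0.64 (SE, n = 4 per group), had the opposite sign to the others. MUC1 213693_s_at stood at 3.52 to 5.55 in Aza, 1.79 to 5.72 in AGA and 2.85 to 4.25 in vehicle. Differences of 0.67 ± 0.84 in Aza and 0.30 ± 0.84 in AGA (SE, n = 4 per group) were smaller than their errors. MUC16, the mucin that carries the CA125 antigen, was at or near the floor: the highest level was 1.28 in Aza, 0.29 in AGA and 0.81 in vehicle, which are deposited intensities of at most 2.49.

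PODXL encodes podocalyxin, a sialomucin that is carried to the forming lumen and binds ezrin through NHERF adaptors. PODXL 201578_at stood at 1.62, 2.57, 3.17 and 3.27 in Aza, at 2.98, 3.72, 3.17 and 2.85 in AGA, and at 0.58, 1.92, 3.29 and 1.41 in vehicle. Vehicle 3 was as high as the treated arrays and the other vehicle arrays were lower than every AGA array. AGA minus vehicle was 1.38 ± 0.54 (SE, n = 4 per group; limma adjusted p of 1) and above 0 in 3 of 4 pairs. Aza minus vehicle was 0.86 ± 0.54 (SE, n = 4 per group; limma adjusted p of 1), also in 3 of 4 pairs. The means were 2.66 ± 0.76 in Aza, 3.18 ± 0.38 in AGA and 1.80 ± 1.14 in vehicle (SD, n = 4 each), so AGA was highest and Aza next, and both steps in that order were within the larger SD. All deposited PODXL intensities were at most 13.98, so with values below 16 set to 16 no difference was left. On the log2(value + 16) scale the PODXL difference from vehicle was 0.17 in Aza and 0.32 in AGA.

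PROM1, also called CD133, sits on microvilli and other membrane protrusions. PROM1 204304_s_at ranged from 0.93 to 3.03 in Aza, 0 to 3.46 in AGA and 0 to 2.65 in vehicle, and the same-number differences had both signs in both comparisons. Its differences, 0.52 ± 0.84 in Aza and 0.42 ± 0.84 in AGA (SE, n = 4 per group), were below their errors.

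The RDX probe sets and the 4 brighter EZR probe sets differed little in mean between the 3 groups, and their arrays lay apart by replicate number. The dim EZR 217230_at averaged 1.496 ± 1.40 in Aza, 0.54 ± 0.63 in AGA and 0.84 ± 0.55 in vehicle (SD, n = 4 each). EZR encodes ezrin, and its brightest probe set, EZR 208623_s_at, stood at 7.37, 8.05, 8.05 and 9.46 in Aza, at 7.60, 7.79, 7.94 and 9.32 in AGA, and at 7.31, 7.98, 8.06 and 9.61 in vehicle. The fourth array of each group was the highest by more than 1 unit. The means were 8.24 ± 0.88, 8.16 ± 0.79 and 8.24 ± 0.97 in Aza, AGA and vehicle (SD, n = 4). With the replicate block the 95% interval of the difference was -0.29 to 0.28 in Aza and -0.36 to 0.20 in AGA, against -1.29 to 1.28 and -1.36 to 1.205 without it.

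RDX encodes radixin, and RDX 212397_at stood at 10.24, 10.08, 10.14 and 9.54 in Aza, at 10.26, 10.10, 10.14 and 9.43 in AGA, and at 10.24, 10.16, 10.07 and 9.53 in vehicle. Here the fourth array of each group was the lowest, and the first 3 replicates of all groups lay within 0.2 of each other. The difference was -0.0010 in Aza and -0.02 in AGA, with 95% intervals under the replicate block of -0.20 to 0.20 and -0.22 to 0.19. The other RDX probe sets differed by 0.15 and 0.0045 in Aza and by -0.07 and -0.13 in AGA.

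MSN encodes moesin, and MSN 200600_at stood at 8.67, 8.57, 9.13 and 8.14 in Aza, at 8.37, 9.06, 9.35 and 8.66 in AGA, and at 9.07, 9.26, 9.42 and 8.48 in vehicle. The groups overlapped, but each Aza array was lower than the vehicle array of its number, by 0.29 to 0.69, a pattern that 7.12% of all probe sets showed. Aza minus vehicle was -0.43 ± 0.29 (SE, n = 4 per group; limma adjusted p of 1), with a 95% interval of -0.82 to -0.04 and an adjusted p of 0.912 under the replicate block. AGA minus vehicle was -0.20 ± 0.29 (SE, n = 4 per group; limma adjusted p of 1). The means were 8.63 ± 0.41 in Aza, 8.86 ± 0.43 in AGA and 9.06 ± 0.41 in vehicle (SD, n = 4 each), an ascending order with both steps smaller than the SD.

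**Figure D4:**
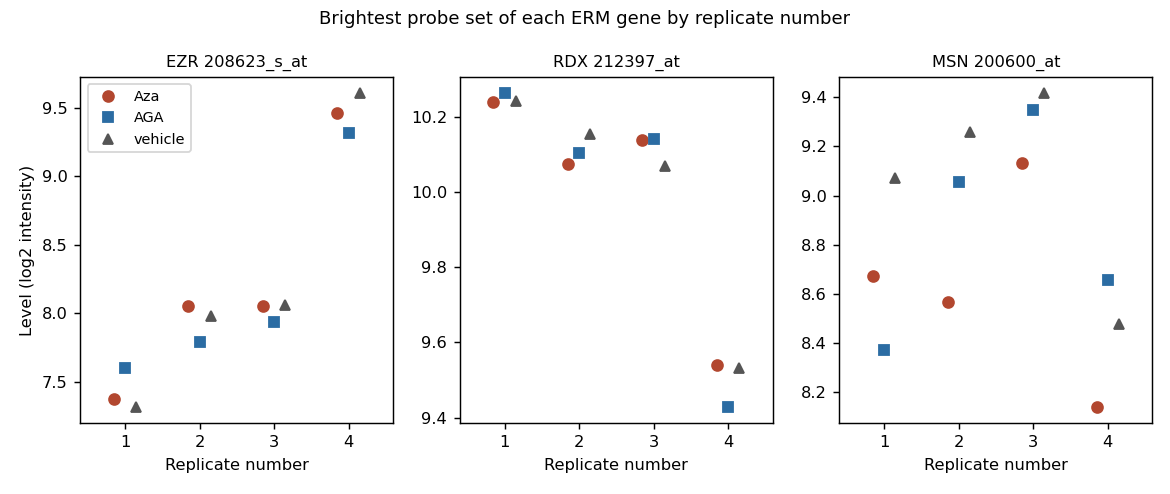
Log2 level (y axes, which do not start at 0) of the brightest EZR, RDX and MSN probe sets by replicate number (x axis) in Aza (circles), AGA (squares) and vehicle (triangles), 1 array per point. Replicate 4 is high for EZR (9.32 to 9.61) and low for RDX (9.43 to 9.54) in all 3 groups.

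The replicate 4 arrays were compared with the other 9 as a description, since the 3 of them share a number and 1 of them belongs to each group. Of the 5 EZR probe sets, 4 were higher on every replicate 4 array than on any other, by 1.39 to 1.67, where 7.51% of all probe sets were so. EZR 208623_s_at averaged 9.46 ± 0.15 on replicate 4 arrays (SD, n = 3) and 7.80 ± 0.30 on the others (SD, n = 9), which is 547 to 795 against 157 to 356 as deposited. Only 1.06% of all probe sets were as far or farther in that direction. The fifth, EZR 217230_at, was dim and overlapped (0.95 to 3.38 against 0 to 1.41).

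The 3 RDX probe sets went the other way, each lower on every replicate 4 array than on any other, by 0.66 to 0.69 (differences of -0.69, -0.66 and -0.69), where 7.11% of all probe sets were so. RDX 212397_at averaged 9.50 ± 0.06 on replicate 4 arrays (SD, n = 3) and 10.16 ± 0.07 on the others (SD, n = 9). MSN was also lower in mean (-0.56), with overlap, since AGA 1 was below AGA 4. The median absolute difference over all probe sets was 0.395 and the 90th percentile 1.11, so EZR lay beyond that percentile and RDX within it. PSCA (-0.23), PODXL (-0.05) and the brightest MUC1 probe set (-0.43) overlapped. The dim probe sets MUC1 213693_s_at (-1.26), MUC4 204895_x_at (1.05) and PROM1 204304_s_at (0.99) overlapped as well, though their differences were larger in size than those of RDX. Without all replicate 4 arrays PSCA differed from vehicle by 1.16 in Aza and 0.50 in AGA, and MUC4 217109_at by 2.83 and 1.59.

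**Figure D5:**
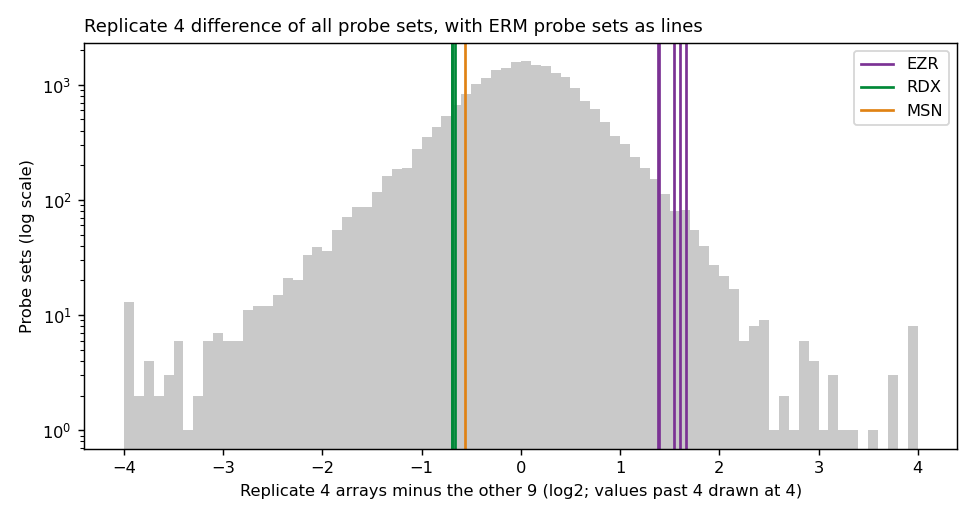
Number of probe sets (y axis, log scale) by mean log2 difference of the 3 replicate 4 arrays from the other 9 (x axis, bins of 0.1), with vertical lines for the EZR, RDX and MSN probe sets. The 5 EZR lines lie at 1.38 to 1.67 in the right tail, and the RDX and MSN lines at -0.69 to -0.56 on the left flank.

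Genes that work with these members were followed in 6 lists of 83 measured genes and 169 probe sets. Limma called 0 of the 169 in each of the 3 comparisons, with 8 in Aza against vehicle, 7 in AGA against vehicle and 10 in Aza against AGA at an unadjusted p under 0.05, where 3.27%, 4.73% and 4.76% of all probe sets passed. With the replicate block it again called 0, with 14, 27 and 25 unadjusted, where 5.39%, 9.52% and 9.13% of all passed. When the block was joined by a robust prior variance that follows intensity, limma called 6 higher and 0 lower in AGA against vehicle, where 0.702% of all probe sets passed, 0 in Aza against vehicle (0.0045% of all), and 4 lower in Aza against AGA (0.851% of all).

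Of the other mucins, 8 genes with 14 probe sets were measured, with a median difference of 0.07 in Aza and 0.13 in AGA, and 0 passed in these 3 fits. The intestinal secreted mucin MUC2 had the lowest p of this list in Aza against vehicle, but not in the other comparisons. Its probe set averaged 4.09 ± 0.61 in Aza, 2.62 ± 1.41 in AGA and 1.30 ± 0.62 in vehicle (SD, n = 4). It was dim, at most 4.64 on any array. Aza minus vehicle for MUC2 was 2.79 ± 0.63 (SE; limma adjusted p of 0.999) and above 0 in 4 of 4 pairs. MSLN, the mesothelin gene whose product binds MUC16, averaged 5.16 ± 0.78 in Aza, 3.06 ± 0.79 in AGA and 2.48 ± 1.69 in vehicle (SD, n = 4), a difference of 2.68 ± 0.76 in Aza (SE; limma adjusted p of 1). LY6D, a Ly6 family relative of PSCA, averaged 4.35 ± 0.90 in Aza, 2.21 ± 1.59 in AGA and 1.82 ± 0.68 in vehicle (SD, n = 4), a difference of 2.53 ± 0.74 in Aza (SE; limma adjusted p of 1).

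The list of ERM regulators and partners had 19 genes and 52 probe sets with medians of -0.01 in Aza and 0.06 in AGA. NF2, which encodes the ERM relative merlin, differed by 1.67 and 2.32 in Aza at 2 dim probe sets but by 0.06 at its brightest, and ICAM1, an adhesion receptor whose tail binds ERM proteins, by 1.73 at 1 probe set and by -0.11 and 0.66 at the others. In AGA the lowest p were those of the first of these NF2 probe sets (1.43), ICAM1 (1.71) and CLIC5 (1.54), a partner of ezrin. In AGA the other ICAM1 probe sets were at 0.46 and -0.51 and the other CLIC5 probe sets, both brighter, at -1.001 and -0.19. The other NF2 probe sets ran from -0.59 to 1.22 in AGA, with the brightest at 0.12. In Aza the NF2 probe sets besides the 2 dim ones named ran from -0.87 to 0.79. Microvillus proteins (22 probe sets) had medians of 0.04 and 0.0035 in Aza and AGA, with the actin bundler FSCN1 at 0.32 ± 0.16 in Aza at 1 probe set but at -0.32 at its other, and the capping protein EPS8 at -0.26 ± 0.18 in AGA (SE, n = 4 per group).

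The calls made with block and trend lay in the 3 remaining lists, and each of these probe sets had an adjusted p of 1 in limma without the block. With block and trend ATP1B1, a sodium pump subunit that most epithelia keep on the basolateral side, rose by 0.65 ± 0.09 and 0.52 ± 0.11 in AGA at 2 probe sets (SE, n = 4 per group; limma adjusted p with block and trend of 0.00444 and 0.0365). CD59, the GPI-anchored complement inhibitor, rose by 0.42 ± 0.08 and 0.39 ± 0.08 at 2 of 4 probe sets (limma adjusted p of 0.0314 and 0.0456), and the others were at 0.46 and 0.24. ST6GALNAC2, which adds sialic acid to mucin sugars, rose by 0.64 ± 0.14 (limma adjusted p of 0.0428), and LGALS3, a lectin that binds MUC1 sugars, by 0.34 ± 0.07 (limma adjusted p of 0.0432). In Aza these probe sets differed from vehicle by -0.11 to 0.12. In Aza against AGA the same fit called ATP1B1 at both probe sets (-0.76 and -0.54), CD59 at 1 (-0.44) and ST6GALNAC2 (-0.60), all lower in 4 of 4 pairs, as were 8.76% of all probe sets. The 39 probe sets of the other apical surface proteins had medians of -0.0046 in Aza and 0.25 in AGA, the 25 of O-glycosylation -0.05 and 0.09, and the 17 of sheddases and ligands -0.01 and 0.16.

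The patterns most like those of 4 members were looked up among the 9793 probe sets with 1 gene symbol and a mean above the median level, as Pearson correlations over the 12 arrays after the mean of each replicate number was taken away. They are descriptions, since the arrays share their normalization and the highest of many correlations is high by selection. Closest to MUC1 207847_s_at were EPAS1 (0.96), ATXN3 (0.95) and MPC1 (0.94), and closest to PODXL were ZNF593 (0.96), RPL12 (0.95) and MRPS11 (0.95). Closest to EZR 208623_s_at were SMAD6, MAP3K7 and SMC2 (0.92, 0.92 and 0.91), and closest to MSN were GNA11, CIAO1 and CDK17 (0.91 each). Dim probe sets, among them all those of MUC1, MUC4, MUC16, PODXL and PROM1, could not appear among these genes.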

How the data were processed

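RNA of 12 samples was hybridised to Affymetrix arrays, 1 per sample, from 2.25 µg of RNA each. The authors deposited a linear intensity per probe set, made with GCOS per the submitters' processing notes, with version, algorithm and scaling not given in the sources used here. Values under 1 were set to 1 and log2 was taken of the deposited intensity. The array medians then differed by 0.62, over a limit of 0.5, and quantile normalization followed, with limma 3.58.1 in R 4.3.3, after 62 control probe sets had been left out of 22277. Symbols came from the platform annotation, and all 19 member probe sets matched GRCh38.p14 gene IDs. The files name no genome build.

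Fits used lmFit and eBayes over all groups, with Benjamini-Hochberg adjustment over all probe sets. The fit without the block was run on simulated arrays for Aza against vehicle. Their noise was independent between arrays and only brighter probe sets were changed. The simulation therefore could not test dim probe sets or deviations shared by replicate number. Same-number arrays of different groups deviated together, with correlations of 0.368 to 0.781 among the 11107 brighter probe sets (12 of 12 pairs over 0.1) and 0.0589 to 0.261 over all (6 of 12 over 0.1). The labels give only the numbers. Alternatives covered scaling, floor, dim probe sets, block, trend, Holm adjustment, the groups fitted and left-out arrays. The rule named every member probe set, list genes past the threshold or with the 3 lowest p, and the 3 closest patterns of MUC1, PODXL, EZR and MSN. Some list genes so selected are not described. The members and lists were chosen with earlier results of these data known.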

Additional observations from a re-analysis of the deposited data

Results flagged for a closer look

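In 5 of 56 groups of 4 arrays examined, 1 array stood apart from the other 3 by more than Dixon's 95% value allows, where chance gives about 1 in 20. MUC1 211695_x_at was at 2.06 on vehicle 1, against 4.13 to 4.47 on the other vehicle arrays. MUC1 213693_s_at was at 5.55 on Aza 3, against 3.52 to 3.68. MUC16 220196_at was at 0.29 on AGA 3 and at 0 on the other AGA arrays, a gap that the floor makes, since the deposited intensities were 1.01 on AGA 3 and 0.756 to 0.989 on the others. EZR 208621_s_at and EZR 208622_s_at were at 6.97 and 7.47 on AGA 4, against 5.41 to 5.61 and 5.86 to 5.97, and the replicate 4 arrays of Aza and vehicle were also the highest of their groups for both.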

How the results depend on the processing

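The count of member probe sets called was 0 in AGA against vehicle and in Aza against AGA under each of 23 alternatives. In Aza against vehicle it was 1, MUC4 217109_at, with only the 2 groups compared, without AGA 1 and without AGA 4 (0 to 1 over the left-out arrays), and 0 under the other 20. With the replicate block the count stayed 0 in all 3 comparisons, so the block changed no call of a member. The median member difference in AGA against vehicle was -0.17 on the deposited scale and -0.0156 with dim probe sets left out, and ran from -0.0048 to 0.38 over the left-out arrays. In Aza against vehicle it was 0 with values below 16 set to 16 and 0.0045 with dim probe sets left out, and ran from 0.12 to 0.47 over the left-out arrays. In Aza against AGA it was 0.27 on the deposited scale, where the median over all probe sets was 0.18. The member median there ran from -0.0487 to 0.24 over the left-out arrays. Of 1281 member values recomputed, 9 moved by more than the replicate SD. That count says little of stability, since block, trend, Holm adjustment and the third group cannot change a difference. The SD of dim probe sets was also wide. PODXL in Aza went from 0.86 to 0 with values below 16 set to 16, yet was not among the 9. PSCA kept its sign in 23 of 23 alternatives in Aza (0.77 to 1.29) and in AGA (0.37 to 0.81). The settings for dim probe sets, block, trend, Holm adjustment and the third group cannot change these differences, so they test nothing about the sign. With dim probe sets left out there was no value for MUC1, MUC4, MUC16, PODXL or PROM1. Dim probe sets, at deposited intensities under the array median, depend on the floor. The causes were not tested.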
